A study of Mus musculus with 63 samples.

Results

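The genes described here encode receptors that answer glutamate or GABA through G proteins: 7 metabotropic glutamate (mGlu) receptor genes (Grm2, Grm3, Grm4, Grm5, Grm6, Grm7 and Grm8) and both subunit genes of the GABA-B receptor (Gabbr1 and Gabbr2). They were taken by symbol, 9 of the 20183 genes in the expression table, by a rule that uses no measured value. The cells lay in layer 2/3 of V1, the primary visual cortex, of lightly anaesthetised male wild type C57BL/6 mice, labelled as 70 days old. Calcium responses to drifting gratings had placed each recorded cell in the light sensitive group (LS) or in the group labelled non-light sensitive (NS), and its soma was then drawn into a pipette and sequenced by the Smart-seq2 method. After the quality filters of the study, 35 of 46 LS cells and 12 of 17 NS cells remained. The labels do not say which mouse gave which cell, so each group counted as 1 sample, no test between groups was possible, and every SD below is a spread over cells.

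Metabotropic receptors do not form ion channels. They act more slowly, through G proteins that change enzymes and channels in the cell. The GABA-B receptor is an obligate pair in which GABBR1 binds GABA and GABBR2 couples to inhibitory G proteins that open inwardly rectifying potassium channels and close calcium channels. The mGlu receptors fall into groups: mGlu5, in group I, drives phospholipase C, while group II (mGlu2 and mGlu3) and group III (mGlu4, mGlu6, mGlu7 and mGlu8) couple to inhibitory G proteins and lie mostly, though not only, at presynaptic terminals. In the cortex, mGlu5 is known chiefly from the postsynaptic side of excitatory synapses, mGlu3 is also made by astrocytes, and mGlu6 is best known from ON bipolar cells of the retina.

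Values are FPKM, a read count scaled to exon length and library depth, which can be compared between genes. LS cells held 356288 to 2493575 recovered reads (median 864906) and NS cells 143975 to 869167 (median 309921), and the number of genes above 1 FPKM was 5864 ± 1679 (SD, n = 35) in LS and 3508 ± 1707 (n = 12) in NS cells. The neuronal markers Snap25, Rbfox3, Tubb3 and Syt1 together ran from 0 to 1318 FPKM (median 678) in LS cells but had a median of 2.22 FPKM in NS cells, where 3 of 12 cells had no read of any of them. By the larger sum of the glutamatergic markers Slc17a7 and Neurod2 or the GABAergic markers Gad1 and Gad2, cells were called glutamate-marked or GABA-marked. LS cells were 30 glutamate-marked, 4 GABA-marked and 1 neither, and NS cells 2, 6 and 4. Light response and marker class therefore cannot be told apart in the LS to NS ratios. As an index of reads from genomic DNA, 1031 sensory receptor genes, which cortical neurons are not known to use, were averaged in each cell; the index reached at least 10% of an even spread over exons in 9 of 12 NS cells and 4 of 35 LS cells, called here high background. A sensory receptor gene had a read in 2.22% of cases in LS and 6.58% in NS cells. These shares were not matched for exon length, and a longer gene offers more bases to background reads. The lengths used for the 9 genes ran from 3049 to 9898 bases. Both values are therefore only a rough guide to background in the shares of cells below. The cells of low background numbered 31 LS and 3 NS, and the ratios among them are given where they differ in direction or size. Of the 31 LS cells, 27 had a read of the glutamatergic markers, while NS_13 and NS_16 were GABA-marked and NS_14 had neither mark. These ratios thus change marker class too, and single cells set most of several NS means. NS_16 held 81.2% of the NS sum of Grm5 and 87.9% of Gabbr2, and NS_14 89.2% of Gabbr1. The part of background in any difference was not tested.

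The 2 GABA-B genes had the highest levels of the 9 genes in LS cells. Gabbr1 (chromosome 17, 37045966 to 37075067 of GRCm38, plus strand) ran from 0 to 82.2 FPKM over LS cells, with a median of 28.6 and a mean of 32.3 ± 23.8 (SD, n = 35). It had a read in 33 of 35 LS cells, 94.3% (exact 95% interval 80.8 to 99.3%). In NS cells the median was 4.21 FPKM and the mean 13.8 ± 28.5 (n = 12), with a read in 8 of 12 cells, 66.7% (34.9 to 90.1%). Its NS values were thus lower in most cells but spanned the whole LS range, because NS_14 held the highest value of all at 101.8 FPKM. NS_14 was a cell of low background with no read of the glutamate or GABA marker genes, and its 6 astrocyte markers summed to 961 FPKM.

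The mean of Gabbr1 was 2.34-fold higher in LS than in NS cells (log2 ratio 1.23), a gap within the spread over cells. It rose to 2.48 without NS_14 and turned to -0.18 among cells of low background. Pooled reads, which weight deep cells more, gave 0.46 (counting interval 0.37 to 0.56) from 10369 LS and 939 NS reads.

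Gabbr2 (chromosome 4, 46662305 to 46991873, minus strand) ran from 0 to 156.7 FPKM in LS cells, with a median of 20.8 and a mean of 24.5 ± 30.5 (n = 35), and 32 of 35 cells had a read, 91.4% (76.9 to 98.2%). The highest value came from LS_17, a cell with 258 FPKM of the glutamatergic marker pair and no read of the 6 astrocyte markers. Among the 12 NS cells, 6 had no read of Gabbr2, and the others held 2.39, 3.92, 18.5, 39.98, 45.2 and 135 FPKM, the last in NS_16, for a mean of 20.4 ± 39.6. The groups therefore differed more in how many cells had a read than in the mean. The log2 ratio of the means was 0.26, which became 1.29 without NS_16, which held 55.1% of the NS sum, and -0.999 among cells of low background. The pooled ratio was -0.03, with a counting interval of -0.13 to 0.08.

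Both subunit genes were read together in 31 of 35 LS cells, 88.6% (73.3 to 96.8%), and in 6 of 12 NS cells (21.1 to 78.9%). Of the LS cells, 2 had Gabbr1 alone, 1 had Gabbr2 alone and 1 had neither, whereas 4 NS cells had neither and 2 had Gabbr1 alone. Where both were present in LS cells, Gabbr1 was the higher in 22 cells and Gabbr2 in 9. Over the 35 LS cells the 2 genes had a Pearson r of 0.511 on log2(FPKM + 1), the highest of any pair of the 9 genes. These points share a library preparation and vary in depth: r with the number of detected genes was 0.250 for Gabbr1 and 0.295 for Gabbr2. The scatter plot of the subunit pair shows the cells that lack one or both.

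**Figure D1:**
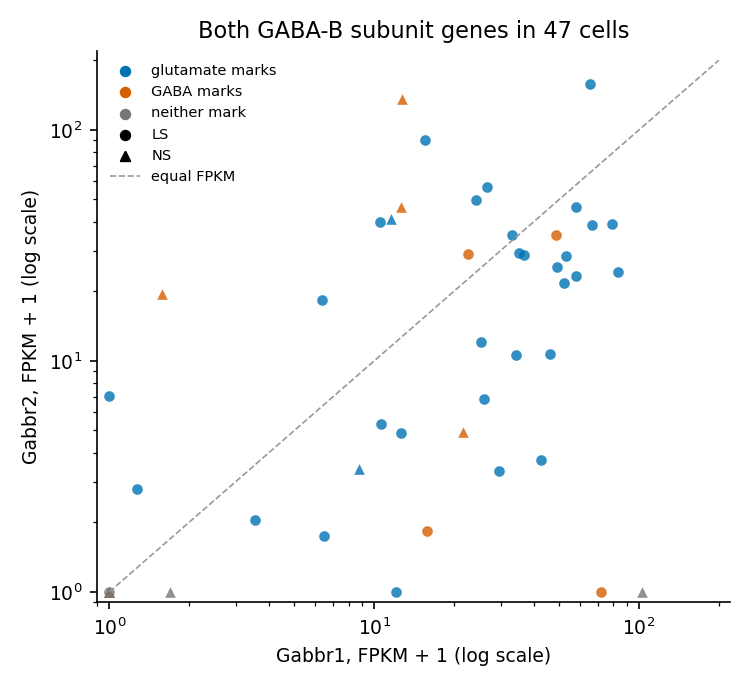
FPKM + 1 of Gabbr1 (horizontal, log scale) against Gabbr2 (vertical, log scale) in 47 cells, with circles for LS and triangles for NS cells, colours for the marker class and a dashed line of equal FPKM. Most LS cells lie away from both axes, and 22 of the 31 with both genes lie below the line; 4 NS cells sit at the origin.

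Grm5 encodes mGlu5 (chromosome 7, 87584168 to 88134907, plus strand). It was the mGlu gene with the highest mean in LS cells, where it ran from 0 to 61.6 FPKM with a median of 10.7 and a mean of 16.5 ± 17.7 (n = 35). A read was present in 28 of 35 LS cells, 80.0% (63.1 to 91.6%), against 5 of 12 NS cells, 41.7% (15.2 to 72.3%). The 5 NS values were 2.29, 2.76, 4.69, 8.78 and, in NS_16, 37.9 FPKM, so the NS mean was 4.70 ± 10.8 with a median of 0. Most NS cells thus lay below most LS cells, although the ranges overlapped, since 7 LS cells also lacked the gene.

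The mean of Grm5 was 3.51-fold higher in LS cells (log2 1.81). Leaving out NS_16, which held 67.2% of the NS sum, raised this to 3.29. Pooled reads gave 1.40 (1.22 to 1.58) from 5822 LS and 276 NS reads. The LS to NS ratio was 2.88 between glutamate-marked cells (30 LS, 2 NS) and -0.61 between GABA-marked cells (4 LS, 6 NS). The low-background NS cells NS_13, NS_14 and NS_16 averaged 15.6 FPKM against 1.08 FPKM in the 9 of high background, and among cells of low background the LS to NS ratio was only 0.16. Expected detection after thinning every cell to 200000 reads was 78.9% in LS cells and 49.99% in the 8 NS cells deep enough, close to the 80.0% and to the 4 of 8 without thinning. All 28 LS cells with Grm5 also had Gabbr1.

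The group II gene Grm2 (chromosome 9, 106643095 to 106656082, minus strand) was sparse. In LS cells it had a read in 10 of 35 cells, 28.6% (14.6 to 46.3%), all 10 of them with more glutamate than GABA markers, and its highest values were 16.8, 15.5, 15.2 and 13.3 FPKM in LS_38, LS_33, LS_32 and LS_30. The LS mean was 2.30 ± 4.93 and the median 0. Of the NS cells only NS_8, at 5.58 FPKM, and NS_2, at 139.7 FPKM, had a read.

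NS_2 alone held 96.2% of the NS sum of Grm2, from 128 reads. It was a high-background cell of 153265 reads with no read of the 4 general neuronal markers, with 3 of 6 astrocyte markers at a sum of 615 FPKM, and with 10 sensory receptor genes at or above its Grm2 level. The NS mean of 12.1 ± 40.2 was 5.27-fold above the LS mean (log2 -2.40), yet without NS_2 the ratio was 2.18 in the other direction. The 3 NS cells of low background were at 0. An antisense gene, Gm28111, overlaps 9.60% of the Grm2 exons, and reads of the pair cannot be told apart if the counting ignored strand.

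Grm3 (chromosome 5, 9485541 to 9725170, minus strand), the other group II gene, was found at a high level in few cells. A read was present in 8 of 35 LS cells, 22.9% (10.4 to 40.1%), which held 147.5 FPKM in LS_34, 36.9 in LS_10, 34.7 in LS_6, 13.4 in LS_3, 9.17 in LS_40, and 1.99, 1.48 and 0.723 in LS_38, LS_44 and LS_9. The mean was 7.02 ± 25.9, of which LS_34 made up 60.01%. In NS cells only 3 reads were found in 2 of 12 cells, 1.31 FPKM in NS_9 and 0.413 in NS_14, for a mean of 0.144 ± 0.387. The 7 LS cells that reached 1 FPKM thus lay above every NS cell, while the remaining LS cells lay in the NS range or had no read.

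The log2 ratio of the Grm3 means was 5.61, the largest in size of the 9 genes. It was 4.33 without LS_34 and 7.55 without NS_9. From 795 LS reads against 3 NS reads, for which the exact Poisson interval is 0.619 to 8.77, the pooled ratio was 5.05 (3.50 to 7.33). On the log2(FPKM + 1) scale, where cells count by presence more than by size, the difference of means was 0.67.

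Because Grm3 is also an astrocyte gene, its cells were set beside the astrocyte markers Gfap, S100b, Aqp4, Slc1a3, Gja1 and Aldh1l1. LS_34 had 2 of these 6 at a sum of 3.79 FPKM, with S100b, Aqp4, Slc1a3 and Aldh1l1 at 0, while its 4 general neuronal markers summed to 805 FPKM and its glutamatergic pair to 36.5 FPKM. The 10 kept cells with a Grm3 read had astrocyte sums from 3.79 to 961 FPKM (median 65.2) and the 37 without it from 0 to 1049 FPKM (median 65.0). These kept cells, LS and NS together, had been chosen for having no joint read of Gfap, S100b and Aqp4, which are part of the sum. The comparison therefore cannot say whether Grm3 goes with astrocyte RNA, and the part of astrocyte RNA in their Grm3 reads was not tested.

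The study's astrocyte score, applied to the deposited values, was above 0 in 10 cells, more than the study describes, and 1 of them stood apart. LS_16 held 535 FPKM of Grm3 from 1516 reads, with all 6 astrocyte markers at a sum of 1721 FPKM and no read of the 4 general neuronal markers or of Slc17a7, Neurod2, Gad1 and Gad2. Gabbr2 in that cell was at 261 FPKM and Gabbr1 at 24.7 FPKM. Over the 10 cells the Grm3 mean was 56.9 ± 168 against 5.27 FPKM in the 47 kept cells (log2 3.43), and Gabbr2 averaged 47.2 ± 82.4 against 23.5 (log2 1.01). Without LS_16 these ratios were -0.47 and -0.0017. Of 8 members tested here, those 2 were at least 2-fold higher, where 17.2% of 16696 genes were, and 5 (Grm5, Grm4, Grm7, Grm8 and Gabbr1) were at least 2-fold lower, where 45.9% were. Gabbr1 was lower by 1.02 on the log2 scale and by 2.16 without LS_36, Grm5 by 2.15 and 2.79, and Grm7 by 2.04 and 2.81. This comparison mixes LS and NS cells. Between the 7 LS cells with the score and the 35 kept LS cells, only Grm3 was at least 2-fold higher (log2 3.53; 22.1% of 14956 genes were), and Grm5 (-1.93), Grm7 (-1.64) and Grm8 (-5.41) were at least 2-fold lower (33.6% were). Gabbr1 at -0.73 and Gabbr2 at 0.95 were then within 2-fold, and Grm4 was too low to be tested. Without LS_16 these LS ratios were -0.30 for Grm3 and -1.06 for Gabbr2, without LS_36 -1.80 for Gabbr1 and -2.61 for Grm7, and without LS_5 -7.50 for Grm8.

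**Figure D2:**
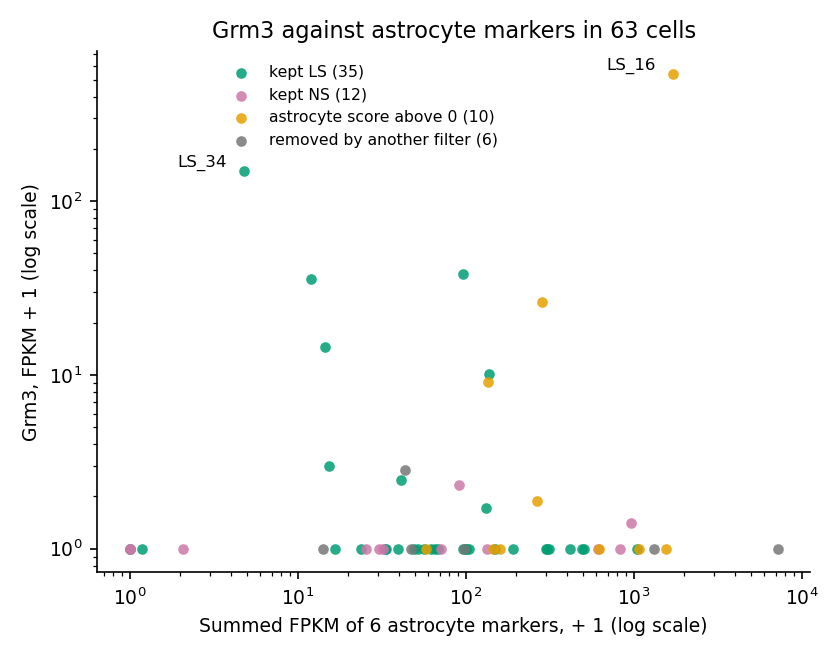
Grm3 FPKM + 1 (vertical, log scale) against the summed FPKM + 1 of 6 astrocyte markers (horizontal, log scale) in all 63 cells, coloured as kept LS, kept NS, removed by the astrocyte score or removed by another filter. LS_34 has 147.5 FPKM of Grm3 beside a marker sum of 3.79, and LS_16 has 535 beside 1721.

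Grm4 (chromosome 17, 27422387 to 27521403, minus strand) had the largest ratio of the 9 genes in favour of NS cells. Only 3 of 35 LS cells had a read, 8.57% (1.804 to 23.1%): LS_14 with 17.7 FPKM, LS_4 with 11.2 and LS_15 with 6.06. In NS cells 4 of 12 had one, 33.3% (9.92 to 65.1%), at 131.9 FPKM in NS_13, 59.3 in NS_2, 5.71 in NS_8 and 0.920 in NS_7. The means were 0.997 ± 3.59 FPKM in LS and 16.5 ± 40.1 in NS cells, 16.5-fold apart (log2 -4.05). The ratio was -2.59 without NS_13, -5.02 without LS_14 and -5.85 among cells of low background. That last value rests on NS_13 alone, a GABA-marked cell that held 100% of the NS sum there. Most cells of both groups had no read, so the medians were 0 in both.

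The Grm4-positive cells included several with strong GABA markers. NS_13, a cell of low background with 1 sensory receptor gene at or above its Grm4 level, had 1342 FPKM of Gad1 and Gad2 together, and LS_14 and LS_15 had 692 and 95.1 FPKM. Taking LS and NS cells together, Grm4 had a read in 4 of 10 GABA-marked cells (12.2 to 73.8%), and in 2 of 32 glutamate-marked cells, 6.25% (0.766 to 20.8%). NS_2, by contrast, had 12 sensory receptor genes at or above its Grm4 level.

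Grm6 (chromosome 11, 50850685 to 50866208, plus strand), the gene of the retinal receptor, was the lowest in LS cells and near the floor of these libraries. It had a read in 3 of 35 LS cells, at 10.4 FPKM in LS_28, 4.10 in LS_30 and 4.02 in LS_13, and in 2 of 12 NS cells, at 17.4 in NS_8 and 1.97 in NS_2. The means were 0.528 ± 1.96 and 1.61 ± 4.99 FPKM (log2 -1.61). Without NS_8, in which 114 sensory receptor genes reached the Grm6 level, the ratio was 1.56 in the other direction, and without LS_28 it was -2.76. The 3 NS cells of low background had no read of Grm6. In total 66 LS and 33 NS reads lay behind these values, and an antisense gene, Gm12660, overlaps 11.05% of the exons.

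Grm7 (chromosome 6, 110645581 to 111567230, plus strand) was the most widely read group III gene. It had a read in 25 of 35 LS cells, 71.4% (53.7 to 85.4%), but the median was 0.891 FPKM and only 17 cells reached 1 FPKM, up to 88.0 in LS_24, which gave a mean of 11.8 ± 18.8. In NS cells 5 of 12 had a read, 41.7% (15.2 to 72.3%), at 76.6 FPKM in NS_12, 47.2 in NS_2, 44.1 in NS_16, 24.9 in NS_6 and 1.53 in NS_11, and the mean was 16.2 ± 26.1. More LS cells than NS cells had the gene, but the NS cells that had it held much of it.

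The log2 ratio of the Grm7 means was -0.45, inside the spread over cells, 0.14 without NS_12 and -0.14 among cells of low background. Its share of LS cells fell from 71.4% to an expected 60.3% after thinning to 200000 reads. The 8 NS cells deep enough had it in 37.5% before and 37.3% after thinning. An antisense gene, Gm20387, overlaps 2.21% of its exons.

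Grm8 (chromosome 6, 27275119 to 28135178, minus strand), a presynaptic group III receptor gene, had a read in 11 of 35 LS cells, 31.4% (16.9 to 49.3%), up to 27.6 FPKM in LS_24, with a mean of 3.996 ± 7.33. In NS cells 3 of 12 had a read (5.49 to 57.2%): NS_6 at 14.8 FPKM, NS_7 at 0.989 and NS_9 at 0.808, for a mean of 1.38 ± 4.24. The mean was 2.89-fold higher in LS cells (log2 1.53), with 1510 LS reads and 32 NS reads behind it. NS_6, in which 47 sensory receptor genes reached the Grm8 level, held 89.2% of the NS sum, and without it the ratio was 4.61. A microRNA gene, Mir592, overlaps 0.970% of the exons on the same strand. The 3 NS cells of low background had no read of Grm8. Pooled reads gave 2.56 (2.06 to 3.11).

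**Figure D3:**
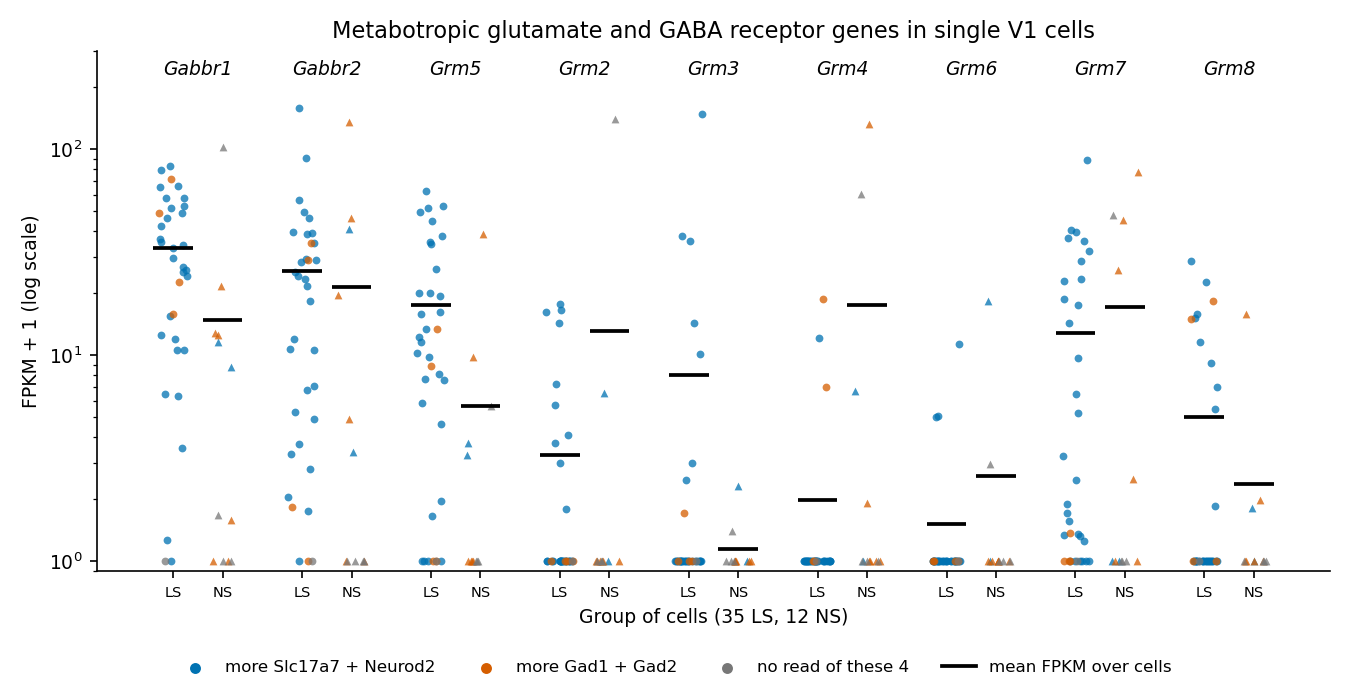
FPKM + 1 (vertical, log scale) of the 9 genes in each of 35 LS cells (circles) and 12 NS cells (triangles), coloured by marker class, with a black line at the mean FPKM of the group plus 1. For Grm2, Grm3, Grm4, Grm6 and Grm8 most cells sit at the bottom and single cells set the mean, such as NS_2 at 139.7 FPKM of Grm2.

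Ordered by mean FPKM, the LS cells ranked Gabbr1, Gabbr2, Grm5, Grm7, Grm3, Grm8, Grm2, Grm4 and Grm6. The NS cells ranked Gabbr2, Grm4, Grm7, Gabbr1, Grm2, Grm5, Grm6, Grm8 and Grm3. In both orders every gap between neighbours was smaller than the larger SD of the pair, so no neighbours differed beyond their spread. An LS cell had a read of a median of 4 of the 9 genes (range 0 to 7) and an NS cell of a median of 3.5 (range 0 to 6). NS_4, NS_15 and LS_43 had none.

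**Figure D4:**
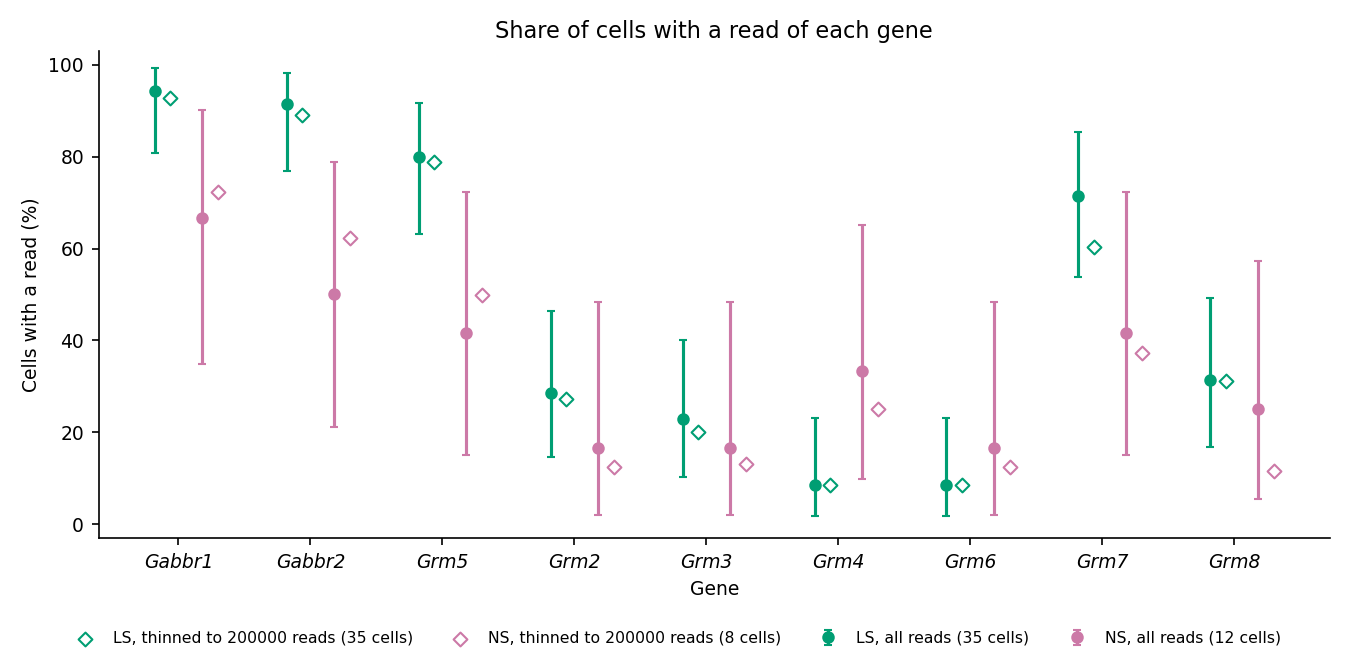
Percentage of cells with a read of each gene (filled points, exact 95% binomial intervals) in 35 LS and 12 NS cells, and the expected percentage after thinning to 200000 reads (open diamonds, 35 LS and 8 NS cells). Only Grm4 and Grm6 had a higher share in NS than in LS cells, and the intervals of LS and NS overlap for every gene. Over all 16760 genes tested, the median share was also lower in NS cells, 16.7% against 34.3% in LS cells.

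Counting genes at least 2-fold apart in mean FPKM, 4 of the 9 genes were higher in LS cells (Grm3, Grm5, Grm8 and Gabbr1), a direction in which 33.8% of 16760 genes passed that fold. Another 3 were higher in NS cells (Grm2, Grm4 and Grm6), where 38.9% of genes passed. Both counts lie near these backgrounds, and so are no result about the 9 genes. Their median log2 ratio was 0.26, against -0.36 over all genes tested. Among cells of low background 3 of 8 genes tested were at least 2-fold higher in LS (68.6% of 13015 genes were) and 1, Grm4, in NS (17.1% were). The Grm4 call rests on NS_13 alone. The 2 GABA-B genes averaged 28.4 ± 22.3 FPKM per LS cell and 17.1 ± 23.7 per NS cell (log2 0.73), which was -0.59 among cells of low background. The 7 mGlu genes averaged 6.16 ± 6.07 and 7.52 ± 11.03 FPKM (log2 -0.29), which was -0.74 there.

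**Figure D5:**
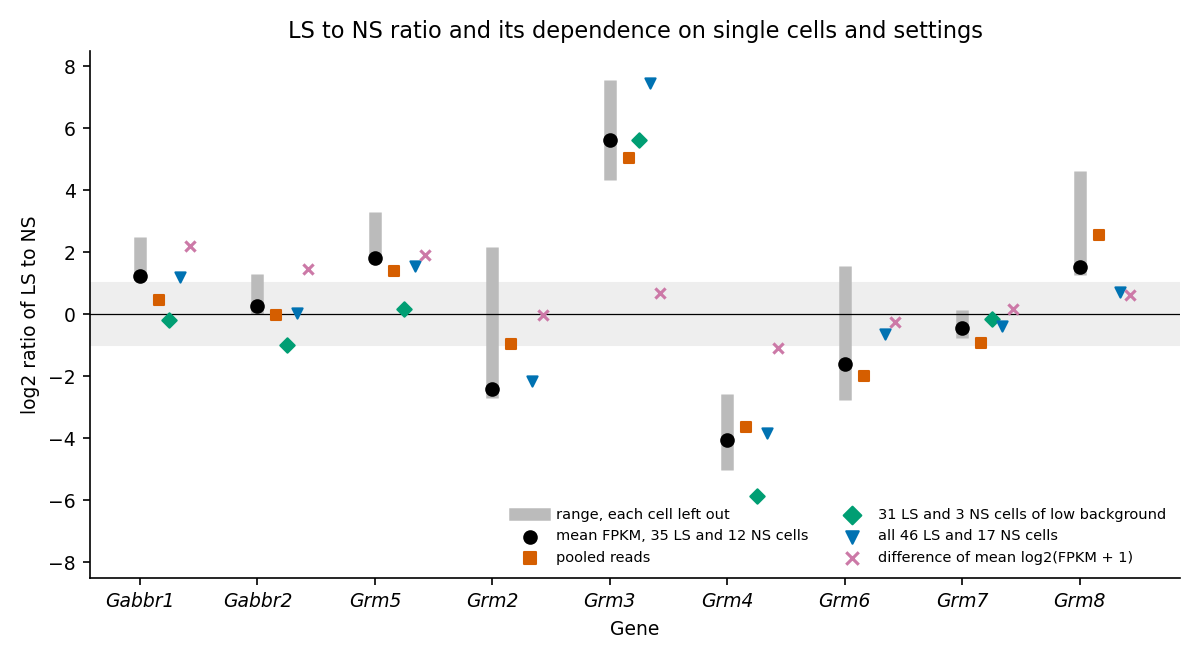
The log2 ratio of LS to NS mean FPKM of each gene (black), its range as each cell is left out (grey bar), and its value from pooled reads, from cells of low background, from all cells and on the log2(FPKM + 1) scale; the grey band marks less than a 2-fold ratio. The bars of Grm2, Grm6 and Grm7 cross 0, and that of Grm4 stays below it. Those of Gabbr1, Gabbr2, Grm3, Grm5 and Grm8 stay above it, with Gabbr2 reaching down to 0.016.

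Within the LS cells, 30 had more FPKM of Slc17a7 and Neurod2 (a vesicular glutamate transporter and a transcription factor of excitatory neurons) than of Gad1 and Gad2 (the GABA-making enzymes), 4 had the reverse, and 1 had neither. The 4 GABA-marked cells were LS_9, LS_14, LS_15 and LS_39. They held 99.997 to 489 FPKM of the astrocyte markers (median 215), against 0 to 1049 (median 53.0) in the 30 glutamate-marked cells. The part of astrocyte RNA in the differences was not tested. LS_9 was of high background, and LS_39 had only 9.25 FPKM of Gad1 and Gad2 together and 2209 genes above 1 FPKM. Among the 8 receptor genes tested, 4 (Grm2, Grm3, Grm5 and Grm7) were at least 2-fold higher in the glutamate-marked cells, where 46.2% of 14454 genes were. Another 2 (Grm4 and Grm8) were at least 2-fold higher in the GABA-marked cells, where 23.2% were. Neither share is far from that of all genes.

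Grm7 differed most in how many cells held it: 24 of 30 glutamate-marked LS cells had a read, against 1 read in 1 of 4 GABA-marked cells, LS_9. Means over all cells of the 2 classes were 13.8 ± 19.7 and 0.0936 FPKM (log2 7.20). Yet in NS cells the order was the opposite. The 6 GABA-marked NS cells averaged 24.5 ± 31.1 FPKM, with a read in 4 of them, and neither of the 2 glutamate-marked NS cells had a read. Of those 4 cells, NS_6, NS_11 and NS_12 were of high background and NS_16 was of low background. Without LS_9 the gene was listed at 0 in the GABA-marked LS cells, and with LS and NS cells combined the ratio was -0.19.

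Grm5 averaged 18.5 ± 18.2 FPKM in glutamate-marked and 5.08 ± 6.16 in GABA-marked LS cells, with a read in 26 of 30 and 2 of 4 cells (log2 1.87, and 2.82 without LS_14). Grm2 averaged 2.68 ± 5.24 FPKM over the glutamate-marked cells, with a read in 10 of 30, and was listed at 0 in all 4 GABA-marked cells. Taking 3 reads over the group as the floor puts it at least 23.9-fold lower there, by read counting alone. Over cells the difference has no such bound. The exact interval for 0 of 4 cells reaches 60.2%, above the 33.3% of glutamate-marked cells with a read. Grm2 was also at 0 in the 6 GABA-marked NS cells. Grm3 averaged 8.17 ± 27.9 FPKM against 0.181, the latter from 1 read in LS_9 (log2 5.50, and 4.22 without LS_34), and had no read in the GABA-marked NS cells. Neither group II gene was thus read beyond 1 read in the 10 GABA-marked cells of both groups.

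Grm4 went the other way, with a read in 1 of 30 glutamate-marked and 2 of 4 GABA-marked cells. Means over all cells of each class were 0.373 ± 2.04 and 5.93 ± 8.32 FPKM (log2 -3.99, and -2.44 without LS_14). Without LS_4 no glutamate-marked LS cell had it. Grm8 averaged 3.62 ± 7.19 FPKM (9 of 30 cells) and 7.83 ± 9.15 (2 of 4 cells: LS_9 at 17.4 and LS_14 at 13.95), a log2 ratio of -1.11 that fell inside the 2-fold limit, at -0.36, without LS_9.

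The GABA-B genes were read in both classes. Gabbr1 was present in 29 of 30 glutamate-marked and 4 of 4 GABA-marked cells, with means over all cells of each class of 32.5 ± 23.5 and 38.7 ± 25.6 FPKM (log2 -0.25). Gabbr2 was present in 29 of 30 and 3 of 4 cells, with class means of 26.5 ± 31.995 and 15.7 ± 17.8 FPKM. Its log2 ratio of 0.76 passed 2-fold, at 1.47, without LS_14. In the 6 GABA-marked NS cells Gabbr2 averaged 33.8 ± 52.5 and Gabbr1 7.44 ± 8.59 FPKM, each with a read in 4 cells.

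Of 24 genes that act with these receptors, 23 were tested between LS and NS cells; 6 were at least 2-fold higher in LS and 5 in NS cells, with a median log2 ratio of -0.49. These shares are below the 33.8% and 38.9% of all genes. Among cells of low background 13 were higher in LS and 6 in NS cells, where 68.6% and 17.1% of all genes were, with a median of 0.33. Among them, the G protein subunit Gnai1 averaged 45.8 ± 50.3 FPKM in LS and 0.653 ± 1.46 in NS cells (log2 6.13, 7.16 without NS_13 and 4.89 among cells of low background). The subunits of inwardly rectifying potassium channels that GABA-B receptors open were also higher in LS cells: Kcnj3 with a read in 22 of 35 against 1 of 12 cells (log2 3.59), Kcnj9 in 28 against 1 (4.37) and Kcnj6 in 18 against 2 (1.14). Without NS_8 and NS_12, respectively, Kcnj3 and Kcnj9 were listed at 0 in NS cells, and Kcnj6 stood at 0.54 without LS_7 and 2.45 without NS_11. All 3 channel genes were at 0 in the NS cells of low background. Kctd16, an auxiliary subunit of the GABA-B receptor, averaged 444 ± 510 FPKM in LS and 116 ± 297 in NS cells (log2 1.93, 3.57 without NS_13 and 0.46 among cells of low background). In the other direction, Adcy1, an adenylyl cyclase, averaged 9.63 ± 13.2 against 43.2 ± 60.7 FPKM (log2 -2.17, and -3.35 among cells of low background), and Gna11, a partner of group I receptors, 13.5 ± 14.8 against 86.2 ± 229 (log2 -2.67), which was -0.63 without NS_11 and -1.75 among cells of low background.

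Between the marker classes of LS cells, 16 of 23 genes of that list were at least 2-fold higher in glutamate-marked and 2 in GABA-marked cells, where 46.2% and 23.2% of all genes were, with a median log2 ratio of 1.76 against 0.14 over all genes. Among genes of the mGlu5 pathway, Gnaq averaged 13.4 ± 20.5 against 1.02 ± 1.23 FPKM (log2 3.73). The phospholipase Plcb1 averaged 12.6 ± 14.9 against 1.42 ± 1.03 (3.15) and Plcb4 4.76 ± 7.71 against 0.222 ± 0.445 (4.42). The scaffold Homer1 averaged 9.99 ± 13.8 against 0.302 ± 0.274 (5.05) and Homer2 5.83 ± 8.03 against 0.848 ± 1.45 (2.78). Gna11 went the other way within 2-fold, 12.9 against 22.2 FPKM (-0.79). The mGlu5 partner Ncdn stood at 202 against 59.5 FPKM (1.76), and Pick1, which binds mGlu7, at 3.68 against 0.786 (2.23). With 4 cells in one class, single cells moved many of these: Gnaq stood at 4.68 and Homer1 at 5.69 without LS_9, Homer2 at 5.47 without LS_15, Pick1 at 2.89 and Ncdn at 2.83 without LS_14, and Plcb4 was listed at 0 in the GABA-marked cells without LS_14. Kcnj6 averaged 5.97 FPKM against a listed 0, Kcnj9 7.27 against 6.11 (0.25), Kcnj3 5.35 against 0.675 (2.99, and 4.52 without LS_14), and Kctd16 488 against 222 (1.13, and 2.96 without LS_9). Elfn2, a synaptic partner of group III receptors, averaged 10.8 against 3.30 FPKM (1.72) and was listed at 0 in the GABA-marked cells without LS_9, while Adcy1 stood at 10.6 against 4.92 (1.11). Adcy8 was higher in GABA-marked cells, 5.38 against 1.11 FPKM (-2.27, and -3.08 without LS_7). The same contrast in NS cells did not show this excess. There 9 of 22 genes of the list were at least 2-fold higher in glutamate-marked and 10 in GABA-marked cells. The median log2 ratio in NS cells was 0.08, against 0.33 over all genes.

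For the 4 receptor genes read in most LS cells, the genes with the most similar pattern over the 35 LS cells were found by Pearson r on log2(FPKM + 1) among 6122 other genes. Grm5 was closest to Arpp21 (r 0.808), Ttc9b (0.787) and Mgst3 (0.762), where the median r of all genes with Grm5 was 0.106. For Grm7 these were Smarcal1 (0.739), Slc2a3 (0.684) and Dbpht2 (0.673), with a median of 0.117. Gabbr1 was closest to Thra (0.774), Aplp1 (0.760) and Eno2 (0.750), with a median of 0.155, and Gabbr2 to Dab1 (0.777), Grin1 (0.713) and Wasf1 (0.694), with a median of 0.159. These are descriptions over cells that share library preparation and differ in depth.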

How the data were processed

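Single V1 somata were sequenced by Smart-seq2, 46 labelled light sensitive and 17 non-light sensitive. The authors trimmed the reads, aligned them to GRCm38 with STAR 2.5.3a and counted them with featureCounts, per the submitters' processing notes, and deposited 1 table of FPKM values; whether counting used strand is not given in the sources used here. No column was left unused (0). From these values, reads per gene were recovered from the FPKM steps. Exon lengths came from the annotation for 12081 genes and were solved from the values for 5916, among them Grm5, Grm4 and Gabbr2. For 2186 genes no length was found. Below 200 reads 100% were whole at a tolerance of 0.01. That share is no check, because a length was kept only if it gave mostly whole reads. Recovered totals give the depth, and exact intervals of shares (Clopper-Pearson) and reads (Poisson) at 95% cover counting error only, as the reads carry no molecular identifiers.

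Filters followed the study: 2 cells of low cDNA, fewer than 1000 genes above 1 FPKM, over 25% mitochondrial reads, or markers of astrocytes, oligodendrocytes or both neuron classes. These marker scores, the study's doublet removal, took out 13 cells here, more than the study describes; 35 LS cells, fewer than it describes, and 12 NS cells remained. A gene was tested at a mean of at least 1 FPKM in the higher group and called at 2-fold. The pooled ratio divides summed reads by summed totals. No other doublet caller was run. The rule for the 9 genes uses no measured value, but the set and all lists were chosen with earlier results of these data known. Genes of the signalling list were named where called and read in at least 50% of cells of the higher group, and like genes as the 3 highest r for members read in at least 50% of LS cells. Coordinates and overlaps came from GENCODE M21. Alternatives were all cells, pooled reads, 2 pseudocounts, background taken off, low-background cells, 1 marker class, another class rule, thinning and each cell left out (for astrocyte-score cells, there also with LS cells only, and the signalling list, there also with low-background cells, chosen after seeing the data). Scripts used Python 3.11.15, numpy 2.4.6, pandas 2.3.3, scipy 1.17.1 and matplotlib 3.10.9 and were tested on simulated data.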

Additional observations from a re-analysis of the deposited data

Results flagged for a closer look

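Among small sets of 4 to 10 cells, several values stood apart from the others of their set by more than Dixon's 95% limit. That limit lets about 5% of sets pass by chance only where values are near normal; most of these sets hold many zeros, so the number of cells apart carries no information. In the 6 GABA-marked NS cells these were Grm4 in NS_13 at 131.9 FPKM (next highest 0.920), Gabbr2 in NS_16 at 135 (next 45.2), Grm5 in NS_16 at 37.9 (next 8.78) and Grm8 in NS_6 at 14.8 (next 0.989). In the 10 cells with an astrocyte score above 0 they were Grm3 and Gabbr2 in LS_16 at 535 and 261 FPKM (next 25.3 and 110.5), Gabbr1 in LS_36 at 80.8 (next 24.7), Grm2 in NS_3 at 15.6 (next 6.05), and Grm4 and Grm6 in LS_5 at 3.91 and 2.40 (next 0 and 0.965).

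The difference between glutamate-marked and GABA-marked cells had opposite directions in LS and NS cells for 2 genes, and this contrast between the groups was not tested. Grm7 was 13.7 FPKM higher in the glutamate-marked LS cells but -24.5 FPKM in the same comparison of NS cells. For Grm5 these values were 13.5 and -5.25 FPKM. Both glutamate-marked NS cells, NS_8 and NS_9, were of high background and weakly marked, with no read of Snap25, Tubb3 or Syt1.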

How the results depend on the processing

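No paired analysis was possible because the cell numbers only name cells and no result comes from a test. Of single-gene LS to NS ratios under all alternatives, 456 stayed within the spread over cells, 22 moved beyond it and 4 reversed. Leaving out each cell in turn gave 418, 3 and 2 of these, so the totals mostly count omissions of 1 cell. On log2(FPKM + 0.1), by contrast, 3 ratios stayed, 5 moved and 1 reversed. A reversal was counted only where the main ratio was at least 2-fold. Gabbr2, at 0.26 and at -0.999 in low-background cells, could therefore not count. Of the shares of cells, 53 stayed within their intervals and 1 moved. Among the reversals, Gabbr1 was -0.18 in low-background cells and Grm2 was 0.30 on log2(FPKM + 0.1). As each cell was left out, Grm2 ran from -2.69 to 2.18 and Grm6 from -2.76 to 1.56; between cells with an astrocyte score, each left out in turn, and kept cells, Grm3 ran from -0.47 to 3.59 and Gabbr2 from -0.0017 to 1.16. Grm7 between glutamate-marked and GABA-marked cells was -0.19 with LS and NS together. The GABA-B mean was 2.75 on log2(FPKM + 0.1), and the mGlu mean 1.42 in glutamate-marked cells. Genes at least 2-fold higher in NS numbered 1 on log2(FPKM + 1), 1 on log2(FPKM + 0.1) and 1 in low-background cells. Genes at least 2-fold higher in GABA-marked LS cells numbered 1 by pooled reads, 1 with LS and NS together, and 1 to 2 as each cell was left out. Grm2, Grm6 and Grm8 gave no ratio in low-background cells, nor did Grm7 between glutamate-marked cells, since NS was listed at 0. Depth limits the NS shares, as 4 of 12 cells were below 200000 reads. The cause of these shifts was not tested.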
